A study of Mus musculus with 2 samples.

Results

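The genes described here are 8 adhesion and migration genes of natural killer (NK) cells in a map of Aiolos on chromatin: the integrin chains Itga1, Itga2, Itgb1 and Itgb2, the hyaluronan receptor Cd44, the sphingosine 1-phosphate receptor S1pr5 and the chemokine receptors Cxcr3 and Cxcr4. The genes were given by name, and their peaks are the rows of the peak list whose gene column holds one of these names. Of the 8 genes, 3 had an assigned peak (Cd44, Itga1 and Itgb1, with 1 peak each) and 5 had none (Itga2, Itgb2, S1pr5, Cxcr3 and Cxcr4). These are 3 of 1404 peaks in all. For comparison, the list assigned a peak to 1178 of 21900 protein-coding genes, or 5.38%. With so few members, chosen with earlier results of these data known, nothing is read from the excess over that share.

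The cells were NK cells of mouse spleen, grown in complete IMDM with 50 ng/ml interleukin-15 until each sample held at least 500000 cells. There were 2 libraries, 1 with a primary antibody against Aiolos and 1 with no primary antibody, which its label calls input. Genotype, strain, sex and age of the mice are not stated in the labels. Aiolos, encoded by Ikzf3, is a zinc finger transcription factor of the Ikaros family, and in CUT&RUN an antibody guides a protein A-micrococcal nuclease fusion to it so that the DNA cut nearby can be sequenced. Fold enrichment, q and gene assignment of every peak are the authors' values. Neither library has a replicate, so every interval covers counting error only. Peak lists hold no expression values, so the cell type could not be checked by marker levels. Of 7 NK marker genes 1 had a peak (Klrb1c), of 4 markers of type 1 innate lymphoid cells 1 had one (Itga1), and of the 3 T cell, 3 B cell and 3 myeloid marker genes none had one. The share over all protein-coding genes was 5.38%. These counts hold for the listed markers only, and nothing about cell type is read from them.

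Integrins are cell surface receptors built from 1 alpha and 1 beta chain. The beta chain Itgb1 (CD29) pairs with Itga1 (CD49a) and Itga2 (CD49b) to form collagen receptors. CD49b marks mature mouse NK cells, while CD49a marks tissue-resident type 1 innate lymphoid cells. Itgb2 (CD18) pairs with another set of alpha chains and, as LFA-1, holds NK cells to their targets through ICAM proteins. S1pr5 is required for the exit of NK cells from bone marrow and lymph nodes. Cxcr4 retains cells in marrow through CXCL12, and Cxcr3 draws them to inflamed tissue through CXCL9 and CXCL10.

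The first question is where the peaks lay and how strong they were. None of the 3 member peaks lay at a promoter, here a peak centre within 1000 bp of the start of the annotated transcript. Over the whole list 910 of 1404 peaks (64.8%) were promoter peaks, and 3.79% of protein-coding genes had one. The Itga1 peak lay just inside its gene, while the Cd44 and Itgb1 peaks lay far upstream of theirs. All 3 rested on few tags, the sequenced fragments that overlap the summit. Low tag counts were usual in this list, with a median of 8 tags over all 1404 peaks.

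Cd44, the receptor for the matrix sugar hyaluronan, had the strongest peak of the set. It lay at chr2:102948342-102948553 on mm10 with its summit at base 102948417. The fold enrichment was 8.43 (95% exact Poisson counting interval 4.31 to 15.3), from 9 tags over a background of 0.186 tags, with a -log10 q of 9.21. It ranked 270 of 1404 by fold, with a value shared by 30 peaks, and 78.7% of peaks were weaker. At 212 bp it was narrow, with 7.41% of peaks narrower still. The peak edge was 46.7 kb upstream of the start of transcript ENSMUST00000111194.7, and the authors classed the site as distal intergenic. In the list, 62 peaks (4.42%) were credited from at least this far.

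The genes around that site bear on the assignment. In the gene table the summit fell inside Gm34483, a long non-coding RNA gene on the plus strand, 6.09 kb from its start. Cd44 was the nearest protein-coding gene, with the summit 46.7 kb from its body. The next one, Pdhx, which encodes a component of the pyruvate dehydrogenase complex, lay 72.6 kb away on the other side. The nearest other peak on chromosome 2, at Caprin1, was 0.849 Mb away.

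Itga1, the alpha 1 chain of the collagen receptor, had a peak at chr13:115098215-115098730 with its summit at base 115098292. Its fold was 8.05 (counting interval 4.12 to 14.6), also from 9 tags but over a slightly higher background of 0.242 tags, and its -log10 q was 8.18. It ranked 345 of 1404 by fold, and 73.9% of peaks were weaker. This was the widest of the 3 at 516 bp, wider than 84.4% of all peaks, whose median width was 265.5 bp. Its summit sat 77 bp from 1 end, so the enriched stretch reached mainly to the side that faces the gene's start.

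The authors placed this peak in intron 1 of the 28 introns of an Itga1 transcript. Its edge was 2.89 kb downstream of the start of the assigned transcript, ENSMUST00000224495.1, and its centre 3.15 kb downstream. Measured from the RefSeq start of Itga1, which lies 340 bp farther upstream, the summit was 3.67 kb inside the gene. Intron 1 also hosts Pelo, a ribosome rescue factor gene on the same strand, whose start was 8.13 kb from the summit. Itga2 lies next to Itga1 on chromosome 13, with 25979 bp between the gene bodies, but the summit was 166 kb from Itga2. Among 190 intronic peaks the Itga1 peak ranked 37, with 36 stronger, against a median of 6.31-fold for that class.

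Itgb1, the beta chain shared by these collagen receptors, had the weakest of the 3 peaks. It lay at chr8:128645754-128645975 with its summit at base 128645833. The fold was 5.06 (counting interval 2.21 to 10.7), from 5 tags over a background of 0.186 tags, with a -log10 q of 3.29. It ranked 1074 of 1404, and 18.3% of peaks were weaker. Because tags are whole and the background had a floor of 0.186 tags, shared by 365 peaks, the values come in steps: 74 peaks in the list carry exactly this fold and p. The peak edge was 39.7 kb upstream of the start, in a site classed as distal intergenic. Itgb1 was the nearest protein-coding gene, and the next, Nrp1, encoding neuropilin 1, was 140 kb away. A small nuclear RNA gene (Gm26002) at 5.16 kb and a pseudogene (Gm9204) at 10.7 kb lay closer than either.

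**Figure D1:**
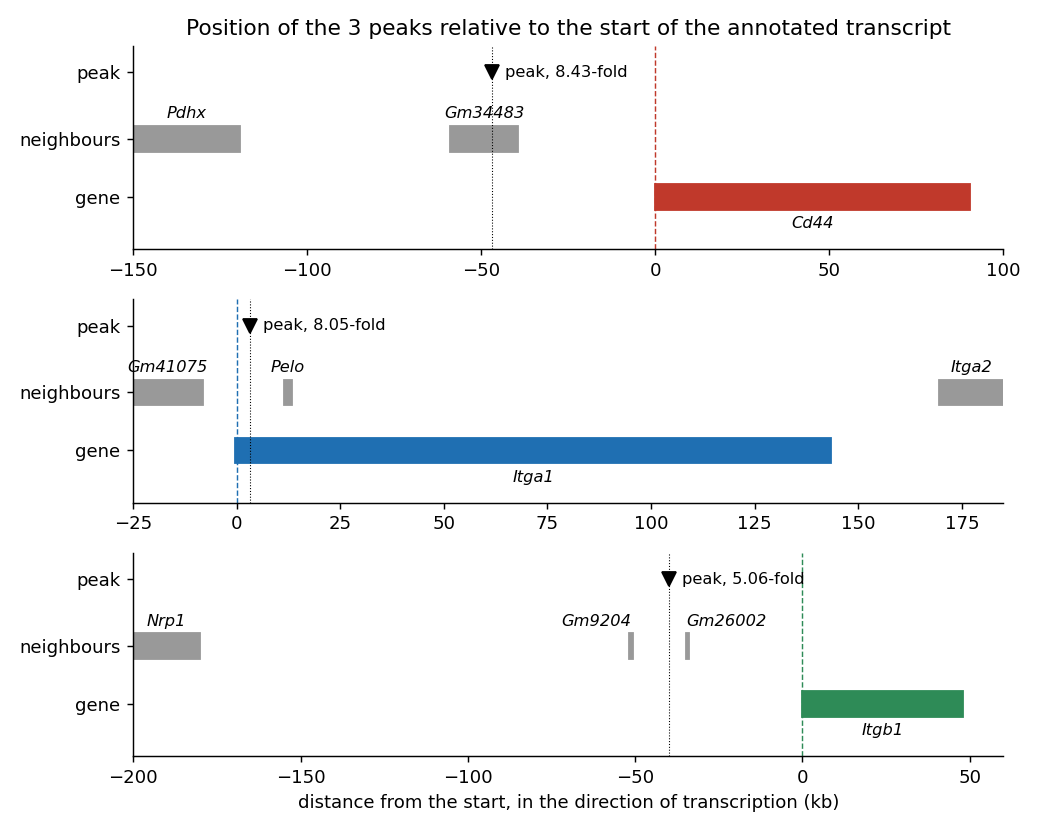
Map of the 3 member peaks (black triangles at the peak centres), with distance from the start of the annotated transcript in kb on each horizontal axis, upstream to the left. Coloured bars are the member genes and grey bars the neighbouring genes, cut at the panel edge. The Itga1 peak lies 3.15 kb inside its gene, and the Cd44 and Itgb1 peaks lie 46.8 and 39.8 kb upstream.

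The order of strength was Cd44, Itga1, Itgb1, but none of these neighbours was resolved. The counting intervals of Cd44 and Itga1 covered nearly the same range, and that of Itgb1 reached up to 10.7-fold, above both other values. The median of the 3 folds was 8.05, beside 6.44 over all 1404 peaks (quartiles 5.08 and 8.05), so the Itga1 peak stood at the upper quartile of the list. Among the 194 distal intergenic peaks, with a median of 5.90-fold, Cd44 ranked 24 and Itgb1 141. None came near the strongest peak of the list, at 25.3-fold.

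**Figure D2:**
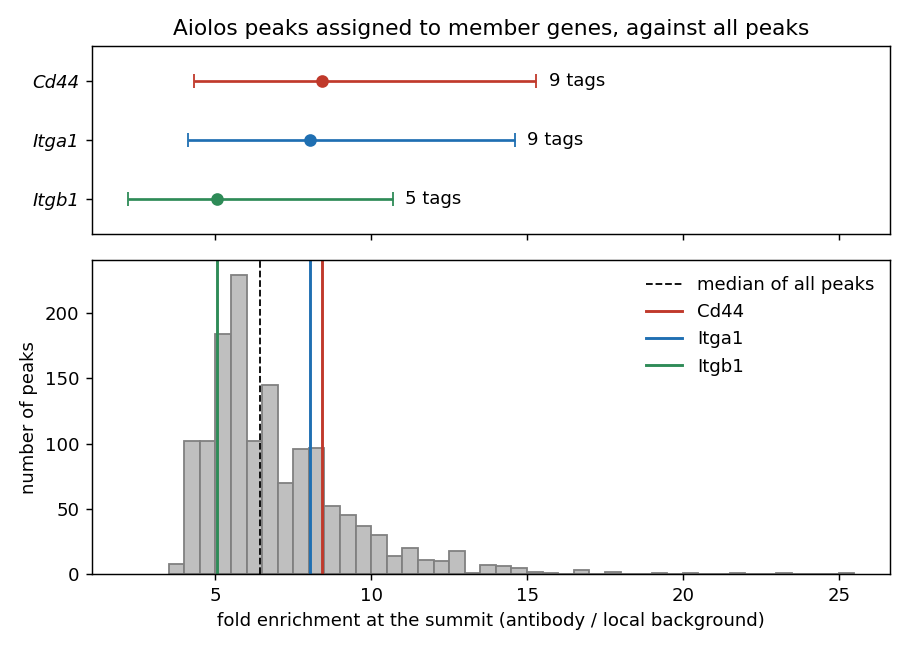
Top, fold enrichment of the 3 member peaks (points) with 95% exact Poisson counting intervals (bars) and the tags at each summit. Bottom, number of peaks per 0.5 step of fold for all 1404 peaks, with the median (dashed) and the member values (coloured lines). Cd44 and Itga1 lie above the median of 6.44 and Itgb1 below it, and all 3 intervals overlap.

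No promoter window of the RefSeq table overlapped a member peak. The 250 bases before the RefSeq start are shown for the 3 genes with a peak (GRCm38.p6), because these are the starts from which their peaks lay away. Capitals mark the letters GGGAA, the core of the motif known for Ikaros family proteins, or TTCCC, the same letters on the other strand. Cd44 is read on the minus strand at chr2:102901666-102901915, Itga1 on the minus strand at chr13:115101965-115102214, and Itgb1 on the plus strand at chr8:128685404-128685653.
Cd44: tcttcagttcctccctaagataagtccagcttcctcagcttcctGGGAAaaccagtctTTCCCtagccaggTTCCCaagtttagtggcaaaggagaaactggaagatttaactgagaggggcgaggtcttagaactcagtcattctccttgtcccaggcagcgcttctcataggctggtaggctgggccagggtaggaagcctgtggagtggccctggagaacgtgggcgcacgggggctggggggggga
Itga1: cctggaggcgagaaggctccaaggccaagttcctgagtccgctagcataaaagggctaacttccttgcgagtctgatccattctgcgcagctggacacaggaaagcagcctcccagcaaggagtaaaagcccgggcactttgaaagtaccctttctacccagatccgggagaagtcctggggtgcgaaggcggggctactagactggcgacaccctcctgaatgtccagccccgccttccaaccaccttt
Itgb1: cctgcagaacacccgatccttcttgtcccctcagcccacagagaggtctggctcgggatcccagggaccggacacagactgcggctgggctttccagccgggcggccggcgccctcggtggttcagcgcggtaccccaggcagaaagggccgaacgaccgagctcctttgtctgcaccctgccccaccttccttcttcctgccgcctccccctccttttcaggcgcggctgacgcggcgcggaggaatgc

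The Cd44 stretch held 3 such matches, starting 206, 192 and 179 bases upstream of the start, yet its only assigned peak was 46.7 kb away. The Itga1 and Itgb1 stretches held none. Of the 7 members with a promoter entry, Cd44, Cxcr4 and S1pr5 had at least 1 match, and the latter 2 had no assigned peak. The same letters occurred in 56.2% of all 32851 promoter stretches of this length, so a match is common. The AP-1 letters TGANTCA were in 0 of 7 member stretches and in 6.75% of all. The Runx letters TGTGGT were found at Cxcr3 alone (14.0% of all), and the GC box GGGCGG at Cxcr4, Itgb1 and S1pr5 (32.7% of all), each counted on both strands. The STAT letters TTCCNGGAA hold GGGAA where N is G and TTCCC where N is C. The STAT letters and the Ets letters ACCGGAAGT were in 0 of 7 and in 0.913% and 0.804% of all stretches. These matches describe letters, not bound sites.

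The second question is how far the members without a peak were from any Aiolos summit. S1pr5 was the closest. Its body, 5.53 kb long on chromosome 9, lay 43.0 kb from a summit at the promoter of Cdkn2d, a cell cycle inhibitor gene, with a fold of 6.31 (counting interval 3.23 to 11.4, 9 tags). Itga2 lay 166 kb from the summit in Itga1. Cxcr4, on chromosome 1, lay 485 kb from a peak of 7.98-fold (5.08 to 12.0) at the promoter of Zranb3, a DNA repair gene. Itgb2, on chromosome 10, lay 733 kb from a peak of 4.69-fold (2.05 to 9.91) at Agpat3, which encodes an enzyme of phospholipid synthesis.

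Cxcr3 stood farthest away. Its nearest summit on chromosome X, at the ribosomal protein gene Rpl10, was 27.5 Mb away, a greater distance than for 99.7% of protein-coding genes. Chromosome X held 14 peaks, assigned to 13 of its 966 protein-coding genes (1.35%), against 4.73% on chromosome 1 and 8.19% on chromosome 10.

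Over 21631 protein-coding genes with a position and a peak on their chromosome, the distance from the gene body to the nearest summit had a median of 404 kb (quartiles 95.5 and 1318 kb). For the 8 members the median was 106 kb. Within 50 kb of a summit were 4 of the 8 members (Itga1, Itgb1, S1pr5 and Cd44), beside 17.6% of all these genes. Itga1, Itgb1 and Cd44 were already counted as having an assigned peak. The 50 kb limit was chosen after these values were seen, and the members with earlier results known. Nothing is therefore read from this share or from the medians. Itgb1 at 39.8 kb, S1pr5 at 43.0 kb and Cd44 at 46.7 kb were nearly equally far from their nearest summit, yet the list credits S1pr5 with no peak because the summit lies at the start of another gene. For the 5 members without a peak the list bounds no level: its weakest peak had a fold of 3.63, its smallest pileup was 4 tags and its lowest -log10 q was 1.31, and enrichment below the calling cutoff, which is not stated, would not be listed.

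**Figure D3:**
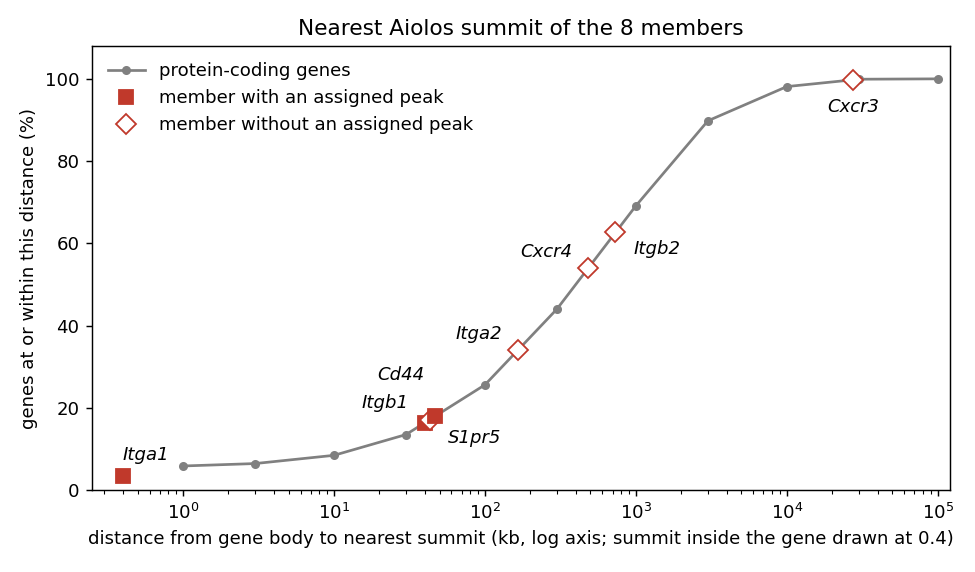
Share of protein-coding genes (vertical axis, percent, grey line) at or within a given distance of an Aiolos summit (horizontal axis, kb, log scale). Red squares are the 3 members with an assigned peak and open diamonds the 5 without, placed on the curve at their own distance. Itga1 contains a summit, Itgb1, S1pr5 and Cd44 lie between 39.8 and 46.7 kb, and Cxcr3 lies at 27.5 Mb.

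The third question sets the members in the wider family of adhesion and migration genes. Among 18 integrin alpha chains 2 had a peak, Itga1 and Itgad, and among 8 beta chains 1, Itgb1. For each list here and below, the share of all protein-coding genes with a peak is 5.38%. Nothing is read from counts this small. Itgad, an alpha chain that pairs with Itgb2, had an intronic peak of 5.03-fold (counting interval 2.20 to 10.6, 5 tags) 6.30 kb downstream of its start. Of the 12 alpha chains that can pair with Itgb1, Itga1 alone had a peak, so both chains of the CD49a collagen receptor were named in the list. Of the 4 partners of Itgb2, the LFA-1 chain Itgal and the chains Itgam and Itgax had none.

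Of 21 listed chemokine receptors 1 had a peak, not a member, beside 5.38% of all protein-coding genes. A further chemokine receptor gene was left out of this list and is not reported here, so the count holds for the listed genes only. Ccr1, a receptor for inflammatory chemokines, had a peak of 5.06-fold (2.21 to 10.7, 5 tags) 17.5 kb upstream of its start. Of 12 sphingosine 1-phosphate receptors and exit genes only Cd69 had one, at 4.97-fold (2.18 to 10.5) and 9.22 kb upstream. CD69 is known to pull S1PR1 from the cell surface. S1pr1 to S1pr5 and Klf2, the factor that drives S1pr1, had none. Of 10 selectins and partners only Gcnt1, an enzyme of selectin ligand synthesis, had a peak, at 6.75-fold and 62.0 kb downstream of its start. Of 20 further adhesion receptors, Cd47 joined Cd44. Cd47, the ligand of SIRP alpha, had a peak of 8.94-fold (4.71 to 15.8, 10 tags) in an intron of another transcript 29.7 kb upstream, and its interval overlapped nearly all of that of Cd44.

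In the intracellular machinery, of 26 integrin activation genes 2 had a peak: Vcl, encoding the adhesion linker vinculin, at its promoter with 5.68-fold (2.81 to 10.6), and Pxn, encoding paxillin, at 6.44-fold in intron 1 of another of its transcripts, 7.52 kb from the assigned start. Of 30 receptor signalling and motility genes 7 had one, or 23.3%, beside 5.38% of all protein-coding genes. This list, like the others, was chosen with earlier results of these data known, so nothing is read from its share. Gnb2, a G protein beta chain, had a promoter peak of 8.83-fold (13 tags), Cfl1, encoding the actin-severing protein cofilin, one of 6.60-fold, Grk6, a receptor kinase, one of 6.31-fold and Myh9, a non-muscle myosin heavy chain, one of 5.68-fold. Cdc42, a small GTPase that organises actin, had the highest fold of these lists, 9.34 (5.39 to 15.2, 14 tags), at a site 9.93 kb upstream. Elmo1, which acts with Dock proteins on Rac, had 2 intronic peaks of 5.05-fold and 4.41-fold, and Ezr, which links membranes to actin, an intergenic one of 4.19-fold 44.7 kb upstream. Of the 14 ligand genes listed, 13 of them protein-coding and among them Cxcl9, Cxcl10, Cxcl12 and Icam1, 0 had a peak, beside the 5.38% of all protein-coding genes. This count holds for the listed ligands only, since the peak list names others, such as Icam5 and the chemokine genes Xcl1, Ccl1 and Ccl3.

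Grouped after these values were seen, the 89 receptor and adhesion genes, members included, had 8 peaks, of which 0 lay at a promoter, and the 56 genes of the intracellular machinery had 10, of which 5 did, beside 64.8% of all peaks. The receptor and adhesion group took whole lists, so it also holds genes of other kinds, such as the enzyme gene Gcnt1 and the factor gene Klf2. The difference between these groups was not tested, and it depends on the lists: Icam5, an adhesion gene outside them, had a peak of 8.08-fold that the authors classed as promoter. The difference also depends on which neighbour is credited. The peak counted for Ccr1 had its summit inside a related gene, Ccr1l1, 0.46 kb from that gene's RefSeq start. Genes with a peak made up 8 of 89 receptor and adhesion genes (8.99%) and 9 of 56 machinery genes (16.1%), beside the 5.38% of all protein-coding genes. The folds overlapped: 4.97 to 8.94 with a median of 5.90 for the receptor and adhesion group, and 4.19 to 9.34 with a median of 5.99 for the machinery. Leaving out the members, 14 of 149 listed genes had a peak (9.4%), beside the same 5.38%. The lists were chosen with earlier results of these data known, so nothing is read from these shares.

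**Figure D4:**
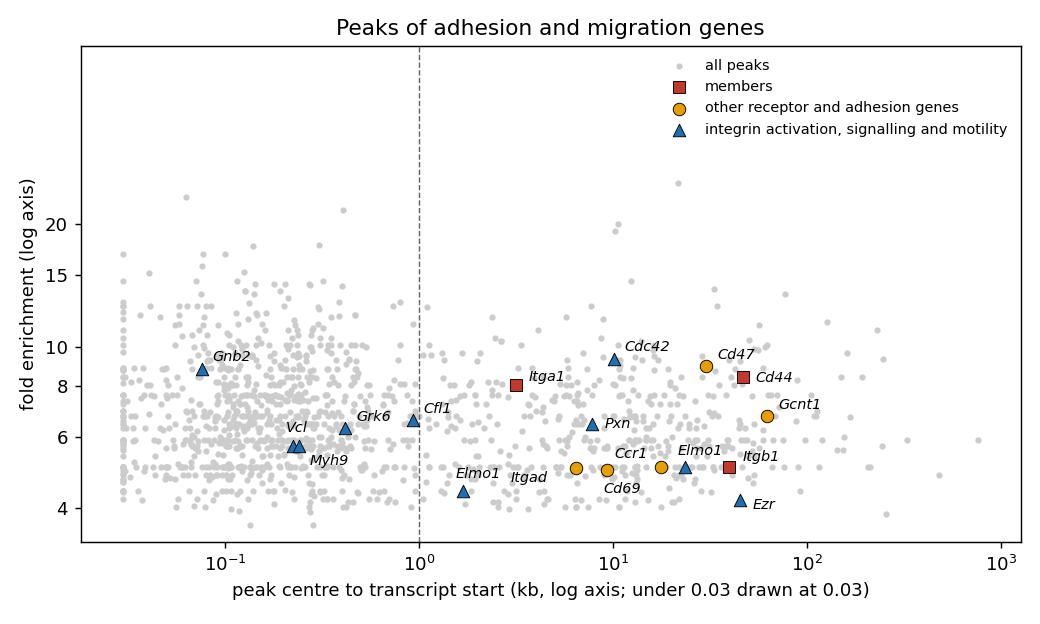
Fold enrichment (vertical axis, log scale) against distance of the peak centre from the transcript start (horizontal axis, kb, log scale) for all 1404 peaks (grey), the 3 members (red squares), other receptor and adhesion genes (orange circles) and genes of integrin activation, signalling and motility (blue triangles). The dashed line marks the promoter limit of 1 kb. The 8 peaks of the receptor and adhesion group, which includes the enzyme gene Gcnt1, all lie to its right. Of the 10 machinery peaks, 5 lie to its left.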

How the data were processed

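CUT&RUN libraries with and without an Aiolos antibody, 1 of each, gave the peak list used. MACS2, Bowtie2, Picard, SAMtools and the build mm10 are named, per the submitters' processing notes, without saying what each did. The labels call the library without antibody input. Whether the peak calling used it as control, the peak cutoff and the handling of duplicates are not stated there. Per the file headers, the list gives each peak a signal value, read here as MACS2's fold, the ratio of the summit pileup plus 1 to the local background plus 1. The authors also deposited the -log10 of p and of q, and a score that equals 10 times the -log10 q without its decimals in 1404 of 1404 peaks. Positions, summits, assigned genes and distances are deposited values too. The tags at each summit were solved from fold and p with SciPy 1.17.1 (largest error in -log10 p 1.75e-05), and the solver recovered 500 of 500 simulated peaks. Intervals are exact Poisson intervals of the tags at 95%, with the background held fixed. Coordinates are 1-based. All 8 members matched the RefSeq gene table (GRCm38.p6, the assembly of mm10) and 7 its promoter table. Promoter peaks are those whose centre is at most 1000 bp from the annotated transcript's start. The members and gene lists were chosen with earlier results of these data known. Named genes are the members and, per wider list, up to 6 genes with a peak, with Ezr added to complete its list and others named where they had none. The 50 kb limit, the grouping into receptors and machinery and the neighbours of Ccr1 and Icam5 were chosen after their values were seen. One gene was left out of the chemokine receptor list and is not reported here. No test was made, since neither library has a replicate. The alternatives were stricter peak sets, other promoter windows, the nearest gene body, other backgrounds and other measures of strength.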

Additional observations from a re-analysis of the deposited data

How the results depend on the processing

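The alternatives were planned, except the nearest protein-coding gene body, which was chosen after seeing the data. Members with a peak numbered 3, beside 5.38% of protein-coding genes, and the share of these genes follows each count here. Members numbered 2 (Cd44 and Itga1) in the 727 peaks of the upper part by -log10 q, cut at the median (2.89%), and in the 687 above the median fold (2.73%), and by construction 1 (Itga1) within 10000 bp of the start (4.57%) and 0 among promoter peaks (3.79%). Crediting each summit to the nearest gene body of any kind left 1 member (5.01%), Itga1, since non-coding genes lie closer to the other summits, and the nearest protein-coding gene body gave 3 (5.95%). Against all 49997 genes of the table, the background share was 2.55%. The log2 difference in median fold between member and other peaks was 0.32 and rested on 3 member peaks. It kept its sign in all 6 alternatives that left a member peak, but was 0.03 in both stricter sets, with 2 member peaks each. The set within 10000 bp held Itga1 alone. Pileup and -log10 q describe the same tags as the fold, so the kept sign is no independent check. The difference could not be computed for promoter peaks, where no member was left. With windows of 500 and 3000 bp or the authors' annotation class, 0 of 3 member peaks were at promoters. The Itga1 peak missed the 3000 bp window by its centre, at 3.15 kb, while its edge, at 2.89 kb, lay inside. The authors' class also placed a peak centred 2681 bp downstream of its start, at Elk4, in an intron. Of 149 genes in the wider lists, members left out, 14 had a peak, beside 5.38% of protein-coding genes. They numbered 6 in the upper set by -log10 q, beside 2.89%, and 10 within 10000 bp, beside 4.57%. On the given strand alone GGGAA was in 2 of 7 member promoters and in 33.3% of all. Depth limits each fold: with 5 to 9 tags the counting intervals span more than a factor of 3. No paired analysis was possible because neither library has a replicate.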

Other observations

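Some peaks near the wider lists carried another name than the list would give them, and their neighbours were looked up after the values were seen. The peak credited to Ccr1, at chr9:123986163-123986436 and 5.06-fold, had its summit inside the related gene Ccr1l1, 0.460 kb from its RefSeq start, and 17.6 kb from the start of Ccr1. On chromosome 9 a peak of 8.08-fold (95% exact Poisson counting interval 4.37 to 13.9, 11 tags) at chr9:21031092-21031371 was credited to Icam5, with its summit 0.831 kb upstream of the start. The summit lay 0.611 kb from the body of Icam4 and 2.39 kb from that of Icam1, the ICAM gene best known as a ligand of the Itgb2 integrin LFA-1. Gene-by-gene counts at these sites therefore depend on which neighbour is credited.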
